A study of Mus musculus with 21 samples.

Results

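The genes of the mitochondrial respiratory chain and ATP synthase were followed across sorted dendritic cells (DCs) of an Aire-reporter mouse. Members were the protein-coding genes whose symbols name subunits of complexes I to IV (Nduf, Sdh, Uqcr and Cox families) or of ATP synthase (Atp5), together with the protein genes of the mitochondrial genome. Pseudogenes were left out. Of 120 matching symbols 13 were not protein-coding, which left 107 members among the 55471 genes of the table, 21974 of them protein-coding. The nucleus encodes 94 members and the mitochondrial genome 13. By role the nuclear members comprise 7 core and 29 accessory subunits of complex I, 4 of complex II, 8 of complex III, 20 of complex IV, 18 of ATP synthase and 8 Ndufaf genes, which encode complex I assembly factors rather than subunits.

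All mice were C57BL/6 and, per the labels, male and 6 weeks old, and all carried the AGF-KI reporter allele of Aire, the autoimmune regulator. KI/+ mice carried it over a wild-type allele (AGF-KI/+). The mice titled AireKO carried it over a minus allele (AGF-KI/-). Lymph node cells positive for CD45, CD11c and MHCII were divided on reporter signal, so that each genotype gave an AGF+ and an AGF- group, 4 in all. Bone marrow AGF+ cells of both genotypes came from the B220-CD24+ fraction without or with low CD11b. The last bone marrow group, titled total DC and from KI/+ mice only, was B220-CD11c+MHCII+. The bone marrow groups therefore differ in gate as well as in reporter, and these cannot be told apart. No group lacks the reporter allele, and the labels do not say which part of Aire the alleles lack. Each of the 7 groups has 3 biological replicates, 21 libraries in all.

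The respiratory chain passes electrons from NADH and succinate through complexes I, II, III and IV to oxygen, and pumps protons across the inner mitochondrial membrane. ATP synthase, also called complex V, uses the returning protons to make ATP. The mitochondrial genome encodes core membrane subunits of complexes I, III, IV and V, while complex II and most other subunits come from nuclear genes, so the complexes need products of both genomes. DCs are known to shift between oxidative phosphorylation and glycolysis as they develop and are activated.

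Libraries held 4164451 to 6055097 counts. Levels are given as CPM, with the library sizes scaled by TMM, and 1 CPM corresponds to 3.93 to 6.58 counts in a library. A count of 0 allows up to 0.456 to 0.764 CPM, by counting error only. Aire stood at 98.6 to 131 CPM in lymph node AGF+ cells of KI/+ mice and at 22.7 to 26.5 CPM in those of AireKO mice. In bone marrow AGF+ cells it was 79.4 to 115 CPM in KI/+ and 11.5 to 19.6 CPM in AireKO, against 0.820 to 1.28 CPM in total DCs. The summed level of 7 DC markers (Flt3, Zbtb46, Itgax, H2-Ab1, Cd74, Ptprc, Ccr7) was 4712 to 9102 CPM in every group, with no marker at 0 in a whole group. Single markers differed more than the sum: Flt3 stood at 21.2 to 55.0 CPM in total DCs and 297 to 339 CPM in bone marrow AGF+ cells of KI/+ mice, and Itgax at 371 to 600.3 and 12.5 to 99.5 CPM. In the 7 libraries numbered 2, 1 per group, Xist stood at 2022 to 3994 CPM and 4 Y-linked genes together at 0 to 0.766 CPM, against the male label. In the other 14 libraries the Y-linked genes summed to 329 to 567 CPM, with Xist at 0 to 31.1 CPM. Where leaving out all libraries numbered 2 moves a count of members by more than 1.5 times, that count is printed too.

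Promoters of respiratory chain genes are known for binding nuclear respiratory factor 1 (NRF1) and the ETS factor GABP, so both motifs were searched in the RefSeq windows (GRCm38.p6) from 250 bases before to 50 bases after each annotated start. Of 93 nuclear member symbols 76 had a window. The NRF1 motif (GCGCA, then any 1 base, then GCGC), searched on both strands, was present for 19 of these 76 genes (25.0%), against 7.17% of all 17491 genes with a window. The GABPA motif CCGGAAG, also on both strands, was present for 18 (23.7%) against 12.9%. At least 1 of them was found for 33 members (43.4%) and 18.6% of all genes. By window rather than by gene, 4.60% and 8.86% of all 32851 windows of 300 bases held them. A match describes these letters only. The stretches below lie upstream of annotated exons on the minus strand and are written 5′ to 3′, with the motif in capitals, at chr2:174464106-174464255 for Atp5e, chr5:115348982-115349129 for Cox6a1, chr16:37654454-37654603 for Ndufb4 and chr4:123718203-123718352 for Ndufs5. They were chosen after values were seen, because these 4 genes carry such motifs and take different courses in the same comparisons. Atp5e holds the GABPA motif on the opposite strand. Cox6a1 holds 2 NRF1 motifs, and Ndufb4 and Ndufs5 hold 1 each.
Atp5e: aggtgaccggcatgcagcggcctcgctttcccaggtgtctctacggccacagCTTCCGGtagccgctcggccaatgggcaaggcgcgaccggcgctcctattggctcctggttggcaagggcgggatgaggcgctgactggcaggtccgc
Cox6a1: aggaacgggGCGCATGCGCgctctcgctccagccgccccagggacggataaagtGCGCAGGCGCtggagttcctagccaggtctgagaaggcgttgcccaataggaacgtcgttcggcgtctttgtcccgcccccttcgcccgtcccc
Ndufb4: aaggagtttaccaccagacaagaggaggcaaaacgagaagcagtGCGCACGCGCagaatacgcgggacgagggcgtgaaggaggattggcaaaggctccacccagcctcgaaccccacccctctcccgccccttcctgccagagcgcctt
Ndufs5: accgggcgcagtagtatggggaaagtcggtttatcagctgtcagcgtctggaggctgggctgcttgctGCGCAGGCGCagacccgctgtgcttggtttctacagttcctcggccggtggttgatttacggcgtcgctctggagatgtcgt

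The mitochondrial members could not all be measured alike. Mean levels over all libraries were 2903 CPM for mt-Co1 (catalytic subunit of complex IV), 1932 for mt-Nd5, 1331 for mt-Nd1, 733 for mt-Nd4, 519 for mt-Nd2 and 197 for mt-Nd6 (all core subunits of complex I), and 1107 for mt-Cytb (cytochrome b of complex III). The other 6 stayed under 10 CPM in every library: mt-Co3 averaged 2.09 CPM, mt-Co2 2.03, mt-Atp6 1.61 and mt-Nd3 0.843, mt-Nd4l had 1 count in all libraries and mt-Atp8 none. Of these 6, 5 share nearly all their sequence with an annotated nuclear copy. As a share of 50-base words found in another transcript of the GENCODE vM21 annotation this was 100% for mt-Co2 (nearly all in the copy Gm28661), 99.9% for mt-Co3 (Gm28437), 99.5% for mt-Atp6 (Gm10925), 98.8% for mt-Nd4l (Gm10222) and 98.0% for mt-Nd3 (Gm28438). The share was 62.2% for mt-Nd4 (Gm28439), 51.1% for mt-Co1 (28.7% with Gm29216 alone), 8.19% for mt-Nd2 and 7.61% for mt-Nd5, and it was 0 for mt-Nd1, mt-Cytb, mt-Nd6 and mt-Atp8. The treatment of reads that map to several places is unknown, which makes the levels of genes with shared sequence uncertain. mt-Nd6 lies on the strand opposite to its neighbours, and whether counting used strand is unknown too.

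The nuclear copy that shares most of mt-Co1 shows how such a part runs. Of the 1545 bases of the gene, the 479 from base 1067 to the end, base 1545, occur in Gm29216 on chromosome 1 (chr1:24615706-24616197, minus strand, 492 bases). No earlier base of the gene does. The stretch chrM:6354-6433 (GRCm38, plus strand), printed here because it crosses that border, has the bases shared with Gm29216 in capitals.
mt-Co1: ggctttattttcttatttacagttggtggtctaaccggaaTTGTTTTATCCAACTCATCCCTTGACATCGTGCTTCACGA

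**Figure D1:**
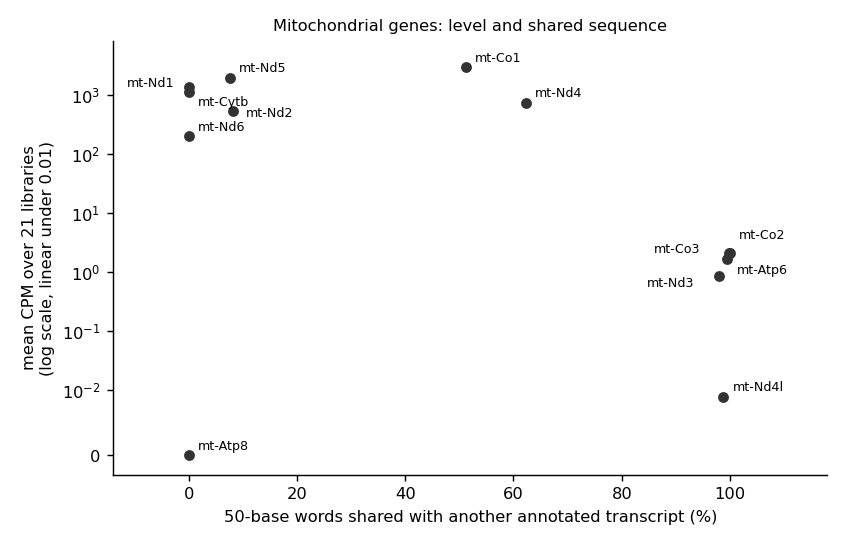
Mean level of each of the 13 mitochondrial members over 21 libraries (CPM, log scale above 0.01 and linear below) against the share of its 50-base words found in another annotated transcript (percent); each point is a gene. The 5 genes with 98.0% to 100% shared words lie at or under 2.09 CPM, while the genes at up to 62.2% lie at 197 CPM or more, apart from mt-Atp8 at 0.

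Nuclear members are less affected. No 50-base word was shared for 45 of the 94, and 5 shared more than 50%: both entries of Atp5o (89.8% and 50.3%), Atp5g2 (87.4%), Atp5l (84.8%) and Cox7c (53.0%). No counts were found for 3 nuclear members, Cox7b2, Cox8c and 1 entry of Atp5o. After the filter on low counts 87 nuclear and 7 mitochondrial members were tested in the lymph node, and 88 and 10 in the bone marrow and across tissues. Cox4i2, Cox8b and Ndufa4l2 also stayed below the filter throughout, and Cox7a1 in the lymph node. The transcripts of nuclear members are short, with a median of 849.5 bases against 2620 for all genes tested.

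Per kilobase of transcript and averaged over the 21 libraries, mt-Co1 led with 1879 CPM per kb, followed by mt-Nd1 (1391), mt-Nd5 (1059), mt-Cytb (968), mt-Nd4 (532), mt-Nd2 (500.3) and mt-Nd6 (380.3). The nuclear members followed, led by Cox4i1, the common isoform of a regulatory complex IV subunit, at 269 CPM per kb. Atp5b and Atp5a1, the β and α subunits of the catalytic ATP synthase head, stood at 228 and 215 CPM per kb. Then came Atp5e (181), Atp5g3 (177) and Uqcrh (155), for the ε subunit, the c subunit of the rotor ring and the hinge protein of complex III. By group, mt-Co1 stood at 751 ± 177 CPM per kb in lymph node AGF+ cells of KI/+ mice and 1031 ± 65.2 in AireKO. Lymph node AGF- cells had 1291 ± 317 and 1334 ± 283. In bone marrow it was 2349 ± 158 and 2918 ± 221 in AGF+ cells and 3481 ± 165 in total DCs (means ± SD, n = 3 each). The order of groups thus ran from lymph node AGF+ over lymph node AGF- to bone marrow AGF+ cells and total DCs, and the 2 lymph node AGF- groups differed by less than their spread.

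Summed over the members, both genomes gave their lowest levels in lymph node AGF+ cells and their highest in bone marrow total DCs. The 94 nuclear members together took 3314, 3411 and 3434 CPM in lymph node AGF+ cells of KI/+ mice and 3393, 3370.4 and 4048 CPM in those of AireKO mice. The AGF- sums of that tissue were 3791, 3858 and 4421 CPM (KI/+) and 3898, 3964 and 6317 CPM (AireKO). For AGF+ cells of the bone marrow they were 4605, 4952 and 5260.4 CPM (KI/+) and 5037, 4799 and 4759 CPM (AireKO), and for total DCs 6709, 8084 and 8112 CPM. Total DCs did not overlap with any other group, and the replicate 3 library of AireKO lymph node AGF- cells stood apart from its group.

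The 13 mitochondrial members together took 2447, 4071 and 3706 CPM (KI/+) and 4367, 4192 and 4957 CPM (AireKO) in AGF+ cells of the lymph node. The AGF- cells had 4589, 5057 and 8564 CPM (KI/+) and 5313, 5121 and 8934 CPM (AireKO), so that both replicate 3 libraries were high. AGF+ cells of the bone marrow had 10828, 9789 and 12061 CPM (KI/+) and 13740, 12232 and 14146 CPM (AireKO), and total DCs 14938, 16782 and 17498 CPM. No lymph node library reached the lowest bone marrow library. The ratio of the mitochondrial to the nuclear sum averaged 1.00, 1.25, 1.49 and 1.36 in the lymph node (AGF+ KI/+, AGF+ AireKO, AGF- KI/+ and AGF- AireKO). In the bone marrow it averaged 2.207 and 2.75 in AGF+ cells of KI/+ and AireKO mice and 2.15 in total DCs. Between the tissues the mitochondrial sum therefore moved more than the nuclear one: bone marrow over lymph node AGF+ cells it was 3.20-fold against 1.46-fold in KI/+ and 2.97-fold against 1.35-fold in AireKO. In bulk RNA of sorted cells, fewer cells of a type and less RNA per cell cannot be told apart.

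**Figure D2:**
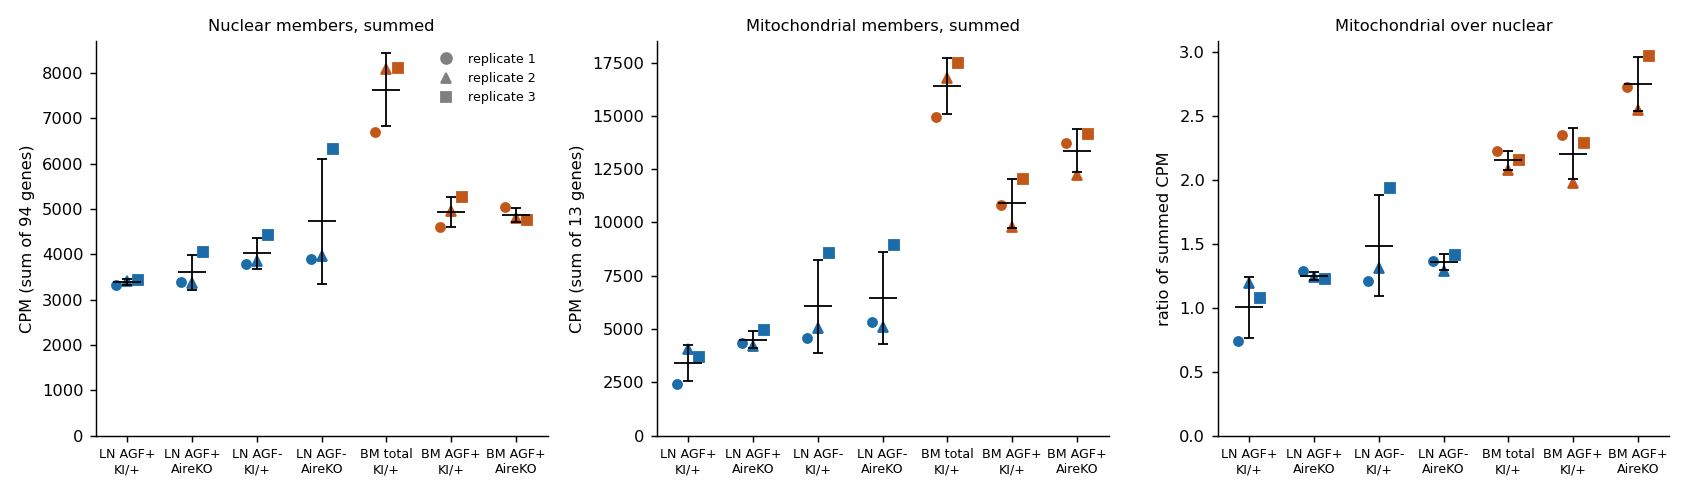
Summed CPM of the 94 nuclear members (left) and 13 mitochondrial members (middle) and the ratio of the sums (right) in each library of the 7 groups; symbols are replicates, blue is lymph node and orange bone marrow, and bars are means ± SD of 3 libraries. The mitochondrial sums of the bone marrow libraries start at 9789 CPM, above the highest lymph node library at 8934 CPM.

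To ask what sets the Aire-reporter cells of the lymph node apart, each genotype's AGF+ cells were set against its AGF- cells. In KI/+ mice 7 of 87 nuclear members were lower in AGF+ cells and 1 was higher, where 11% of all genes tested were lower and 10.1% higher (edgeR quasi-likelihood test, adjusted p under 0.05). The share of nuclear members called was thus near or under that of all genes. Of the 7 mitochondrial members tested 4 were lower. The median log2 fold change was -0.28 over the nuclear and -0.82 over the mitochondrial members, against 0.01 over all genes. mt-Co1 stood at 849, 1366 and 1266 CPM in AGF+ and 1703, 1720.4 and 2559 CPM in AGF- cells, without overlap, and fell by 0.78 on the log2 scale (SE 0.20, adjusted p = 0.0137). mt-Nd1 (374, 584 and 562 against 723, 738 and 1299 CPM) fell by 0.86 (SE 0.25, adjusted p = 0.0251). mt-Nd2 fell by 0.95 and mt-Nd5 fell by 0.92 (adjusted p = 0.0254 and 0.0422). Values for mt-Cytb (-0.78), mt-Nd4 (-0.82) and mt-Nd6 (-0.72) lay in the same range and did not pass (adjusted p = 0.0729 to 0.14).

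Among the nuclear members of KI/+ lymph node cells, calls were spread over the complexes, with 1 lower of 7 core and 1 of 29 accessory subunits of complex I, 1 of 4 in complex II, 1 of 8 in complex III, 2 of 14 in complex IV and 1 of 17 in ATP synthase. None of the 8 assembly factors was called (edgeR, 0 at an unadjusted p under 0.05, median 0.00). Sdhb, the iron-sulfur subunit of complex II, had 30.1, 30.1 and 34.9 CPM in AGF+ and 51.9, 44.2 and 54.1 CPM in AGF- cells. It fell by 0.66 (SE 0.19, adjusted p = 0.0242), and the groups did not overlap. Uqcrfs1, the Rieske iron-sulfur protein of complex III, stood at 27.0, 33.3 and 28.6 CPM against 40.4, 43.8 and 45.0 CPM and fell by 0.54 (SE 0.15, adjusted p = 0.018). Also lower were Cox5a of complex IV (-0.76, adjusted p = 0.0307), the complex I subunits Ndufs8 (-0.70, adjusted p = 0.0301) and Ndufb8 (-0.57, adjusted p = 0.0285), and Cox6a2, described with the isoforms. Atp5a1 fell by 0.33 at an adjusted p just under 0.05. The 1 higher member was Atp5s, which encodes coupling factor B, a protein associated with ATP synthase. It had 18.3, 16.7 and 18.8 CPM in AGF+ against 10.2, 12.1 and 10.4 CPM in AGF- cells, and rose by 0.71 (SE 0.20, adjusted p = 0.0196).

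These counts rested on few libraries. Leaving out 1 library gave 1 to 4 nuclear members lower in KI/+ in place of 7: 1 without AGF+ replicate 1 or AGF- replicate 3, 2 without AGF+ replicate 3, 3 without either replicate 2 and 4 without AGF- replicate 1. The mitochondrial count was 0 without AGF+ replicate 1 or AGF- replicate 3, 2 without AGF+ replicate 3 and 6 without AGF- replicate 1. Without the libraries numbered 2 there was 1 nuclear call lower and 0 higher. With the replicate number as a block, which pairs the libraries here, 12 nuclear members and all 7 mitochondrial members tested were lower. The share of all genes lower with the block is not given here, so these counts cannot be read as particular to the members. Cox6a2 was the 1 nuclear call kept in every alternative tried, but it passed the filter on low counts only through AGF- cells, where it was high.

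In AireKO mice the same comparison called 15 of 87 nuclear members lower and 0 higher, where 13.3% of all genes were lower and 11.4% higher. At an unadjusted p under 0.05 there were 38 nuclear members, where 5753 of all 15884 genes tested reached it. Limma voom and the replicate block each called 1 member higher. Complex II had 3 of 4 members lower, complex III 2 of 8, complex IV 2 of 14, ATP synthase 4 of 17, and complex I 1 of 7 core and 3 of 29 accessory subunits. The median was -0.39 over nuclear members. Sdhb had 30.9, 26.1 and 36.3 CPM in AGF+ and 52.3, 44.4 and 77.3 CPM in AGF- cells and fell by 0.90 (SE 0.19, adjusted p = 0.00331). Uqcrfs1 fell by 0.67 (adjusted p = 0.00386), Atp5a1 fell by 0.48 (adjusted p = 0.00577), Cox5a fell by 0.88 (adjusted p = 0.0119) and Atp5g1, one of 3 genes for the c subunit, fell by 1.04 (adjusted p = 0.011). All 7 nuclear members lower in KI/+ were among the 15 lower in AireKO (46.7% of these), and the 2 comparisons share no library, although they came from 1 fit. The overlap over all genes is not given here.

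The mitochondrial members of AireKO lymph node cells gave 0 calls of 7 (edgeR; 3 at an unadjusted p under 0.05, 1 call by DESeq2, 0 by limma voom), with a median of -0.62. Values ran from -0.37 for mt-Co1 (adjusted p = 0.204) over -0.48 for mt-Nd1, -0.56 for mt-Nd4, -0.62 for mt-Cytb, -0.63 for mt-Nd5 and -0.70 for mt-Nd2 to -0.76 for mt-Nd6. The test of the difference between the genotypes, the interaction of genotype with sort, called 0 of 7 mitochondrial and 0 of 87 nuclear members (edgeR; 0 and 1 at an unadjusted p under 0.05; DESeq2, limma voom and the block 0), where 0.0063% of all genes were called. The sort effect was thus not shown to differ between genotypes. With the replicate block 33 nuclear members were lower in AireKO, and 3 mitochondrial ones, again without the share of all genes. Leaving out a library gave 6 (AGF+ replicate 2 or AGF- replicate 3) to 25 (AGF- replicate 1 or 2) nuclear members lower, with 10 without AGF+ replicate 1, and 7 without the libraries numbered 2. Without AGF- replicate 3 the medians were -0.11 (nuclear) and -0.26 (mitochondrial), and in KI/+ they were -0.15 and -0.50 without AGF- replicate 3.

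Markers of other cells differed between the lymph node sorts. The 5 T and NK cell markers summed to 3.15 to 9.42 CPM in AGF+ and 25.8 to 232 CPM in AGF- libraries of both genotypes, and all 5 were lower in AGF+ cells in each genotype. Monocyte and macrophage markers summed to 243 to 498 CPM against 1918 to 2720 CPM, again with 5 of 5 lower. B cell markers summed to 46.7 to 75.7 CPM against 185 to 666 CPM, with 4 of 5 lower in KI/+ and 5 of 5 in AireKO. Proliferation markers summed to 56.5 to 101 CPM against 141 to 233 CPM, with 3 and 4 of 5 lower. Of the defining markers, Ncr1 was at 0 in AGF+ cells of KI/+ mice, S100a8, S100a9, Hba-a1 and Hbb-bt were at 0 in AGF+ cells of both genotypes, and Elane was at 0 in all lymph node groups but AGF+ KI/+. Cd3e reached 65.1 and 73.4 CPM in the AGF- replicate 3 libraries of KI/+ and AireKO, which also had the highest mitochondrial sums. Cd3d and Cd3g were highest in the same libraries. Ncr1 was instead highest in AGF- replicate 1, at 46.6 and 95.7 CPM against 31.7 and 38.1 CPM in replicate 3. Nkg7 was highest in replicate 3 in KI/+ and in replicate 1 in AireKO. The part of these cells in the member values was not tested.

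In the bone marrow of KI/+ mice, AGF+ cells were compared with total DCs, which lie in another gate. Here 50 of 88 nuclear members were lower in AGF+ cells and 3 were higher, where 21.6% of all genes were lower and 22.8% higher, and 7 of 10 mitochondrial members were lower. The medians were -0.52 over nuclear members, -0.58 over mitochondrial ones and 0.02 over all genes. Each complex had lower members: 13 of 17 members of ATP synthase were lower (median -0.72), 4 of 4 of complex II (-0.67), 7 of 8 of complex III (-0.70), 9 of 15 of complex IV (-0.52, with 2 higher), and 4 of 7 core and 11 of 29 accessory subunits of complex I (-0.41 and -0.40, with 1 accessory subunit higher). Of the assembly factors 2 of 8 were lower, with a median of -0.19.

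Cox8a, the common isoform of the smallest complex IV subunit, stood at 58.3, 55.5 and 63.7 CPM in bone marrow AGF+ cells and 120.1, 133 and 117 CPM in total DCs. It fell by 1.05 (SE 0.12, adjusted p = 5.54e-05), and the groups lay far apart. Uqcr10, a small subunit of complex III, had 20.6, 24.9 and 25.5 against 41.4, 55.1 and 63.1 CPM and fell by 1.16 (SE 0.17, adjusted p = 2.64e-04). The groups did not overlap. Uqcrh fell by 0.70 (adjusted p = 2.86e-04), Cox6b1 fell by 0.93 (adjusted p = 3.30e-04), and Atp5a1 (609, 653 and 682 against 926, 1085 and 1110.3 CPM) fell by 0.67 (adjusted p = 4.26e-04). Of the most abundant nuclear members Atp5b fell by 0.73, Atp5c1 fell by 0.80, Sdha fell by 0.60 and Cox4i1 fell by 0.38. Atp5e, whose upstream stretch with the GABPA motif is printed above, fell by 0.76 (adjusted p = 0.00127).

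The mitochondrial members of bone marrow AGF+ cells moved by nearly equal amounts. mt-Co1 had 3650.2, 3375 and 3861 CPM in AGF+ cells and 5091, 5575 and 5467 CPM in total DCs and fell by 0.56 (SE 0.10, adjusted p = 9.99e-04). mt-Nd6 fell by 0.76 (adjusted p = 0.0011), mt-Nd2 fell by 0.63, mt-Nd1 fell by 0.59, mt-Nd5 and mt-Cytb each fell by 0.58 and mt-Nd4 fell by 0.56. The scarcely counted mt-Co2 (-0.76), mt-Co3 (-0.57) and mt-Atp6 (-0.34) did not pass (adjusted p = 0.124 to 0.469). None of the 7 called genes overlapped between the groups, but the test had picked them. The share of all genes without overlap is not given here.

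Against this course, 3 nuclear members were higher in bone marrow AGF+ cells. Ndufa4, a subunit now assigned to complex IV, had 64.2, 73.7 and 92.4 CPM in AGF+ cells and 43.7, 59.0 and 57.9 CPM in total DCs and rose by 0.53 (SE 0.16, adjusted p = 0.0191). Ndufb4, an accessory subunit of complex I, had 19.8, 19.1 and 18.5 against 10.0, 14.6 and 15.8 CPM and rose by 0.52 (SE 0.19, adjusted p = 0.0443). Both sets lay without overlap, yet the call of Ndufb4 was lost in 5 of 6 fits that left out a library and that of Ndufa4 in 2 of 6. The third was Cox6a2. Ndufs5, which like Ndufb4 has an NRF1 motif upstream, did not pass (-0.62, adjusted p = 0.0705). Without the libraries numbered 2 the counts were 20 nuclear members lower, 1 higher and 4 mitochondrial members lower. The count of higher members was 1 without total DC replicate 1 and without AGF+ replicate 3.

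Markers in the bone marrow groups differed as well. Proliferation markers summed to 956 to 1873 CPM in AGF+ cells of KI/+ mice and 465 to 713 CPM in total DCs, with 5 of 5 higher in AGF+ cells. Monocyte and macrophage markers summed to 108 to 192 CPM against 942 to 1405 CPM, with 4 of 5 lower. B cell markers summed to 117 to 148 CPM against 19.5 to 24.7 CPM, with 3 of the 3 tested higher. T and NK cell markers stayed at 0.965 to 5.12 CPM in both, and Ncr1 and Hba-a1 were at 0 in both. The part of these cells, or of proliferation, in the member values was not tested. Offsets for length and GC split all genes into 2958 higher and 4713 lower in place of 3531 and 3350, and library size alone into 4241 and 2642.

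**Figure D3:**
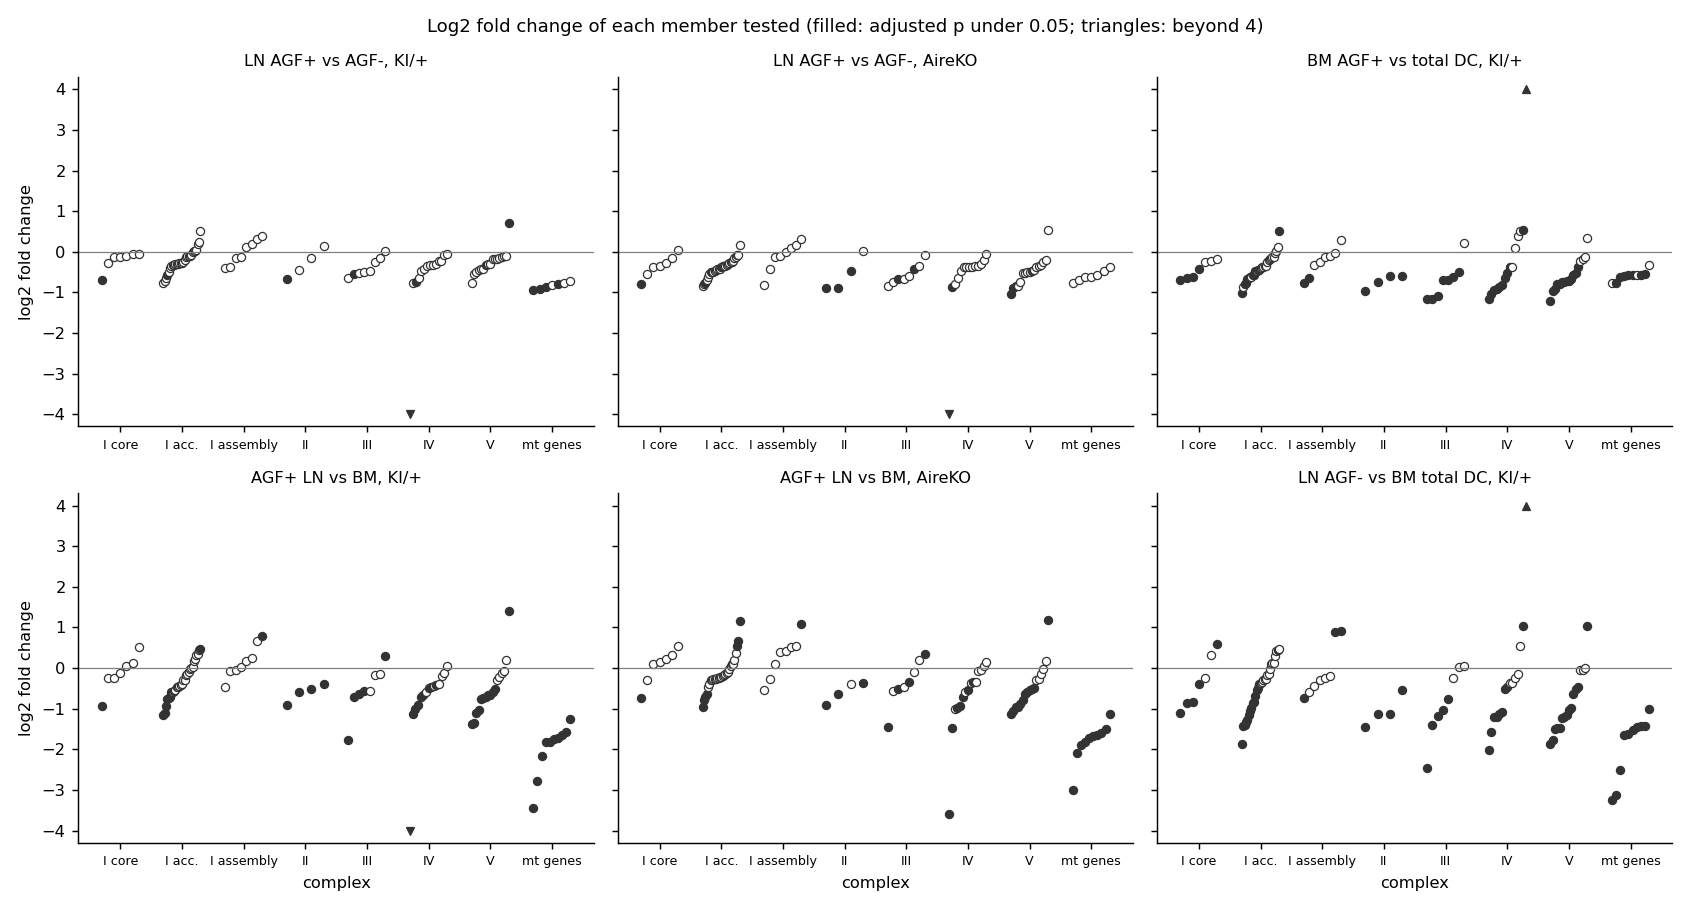
Log2 fold change of each member tested in 6 comparisons, grouped by complex (I core, I accessory, I assembly, II, III, IV, V) with mitochondrial genes at the right; filled symbols passed an adjusted p under 0.05 and triangles lie beyond 4 on the log2 scale (Cox6a2). The 10 mitochondrial members lie between -3.44 and -1.01 in the lower panels, which compare lymph node with bone marrow, while most nuclear members lie closer to 0. Of these 10, mt-Co2, mt-Co3 and mt-Atp6 passed the filter only through the bone marrow libraries.

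AGF+ cells of the lymph node were then compared with AGF+ cells of the bone marrow, which come from other gates. All 10 mitochondrial members tested were lower in the lymph node in both genotypes, with medians of -1.78 in KI/+ and -1.71 in AireKO. Of these, mt-Co2, mt-Co3 and mt-Atp6 lay below the filter on low counts in the lymph node fit. They were kept across tissues only through the bone marrow libraries, where they were higher, so their falls add no support. The 7 members that were also tested in the lymph node fit were all lower. Of 88 nuclear members 38 were lower and 4 higher in KI/+, where 27.1% of all genes were lower and 27.2% higher (54.2% together). In AireKO 29 were lower and 6 higher, where 25.7% of all genes were lower and 25.7% higher (51.4% together). The nuclear medians were -0.43 and -0.28, and that of all genes was 0.04 in both. Of the 38 and 29 lower members 28 were shared (73.7% and 96.6%), and of the 4 and 6 higher ones 4 (100% and 66.7%). The 2 comparisons share no library, and across the 88 nuclear members, which are not independent, 81 had the same sign in both (r = 0.896, or 0.847 without Cox6a2, and rho = 0.850). The same measures over all genes are not given here, so this likeness cannot be read as particular to the members.

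mt-Co1 stood at 849, 1366 and 1266 CPM in lymph node and 3650.2, 3375 and 3861 CPM in bone marrow AGF+ cells of KI/+ mice. In AireKO it was 1536, 1535 and 1709.9 against 4581, 4136 and 4809 CPM. No lymph node library came near a bone marrow one, and mt-Co1 fell by 1.64 (SE 0.18, adjusted p = 1.86e-07) in KI/+ and fell by 1.501 (SE 0.18, adjusted p = 6.68e-07) in AireKO. In KI/+, mt-Cytb fell by 1.83, mt-Nd2 fell by 1.82, mt-Nd5 fell by 1.75, mt-Nd1 fell by 1.72, mt-Nd6 fell by 1.57 and mt-Nd4 fell by 1.25. In AireKO the falls were -1.83 for mt-Cytb, -1.73 for mt-Nd2, -1.68 for mt-Nd6, -1.64 for mt-Nd5, -1.59 for mt-Nd1 and -1.14 for mt-Nd4. The scarcely counted mt-Co2 (5 counts in all lymph node AGF+ libraries of KI/+ mice), mt-Co3 and mt-Atp6 fell by 3.44, 2.78 and 2.15 in KI/+, and were -2.10, -3.01 and -1.88 in AireKO.

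Of the nuclear members, ATP synthase had 11 of 17 lower between the tissues and 1 higher in each genotype (medians -0.65 and -0.53). Atp5a1 had 303, 284 and 309 CPM in lymph node and 609, 653 and 682 CPM in bone marrow AGF+ cells of KI/+ mice, without overlap. It fell by 1.12 (SE 0.11, adjusted p = 5.80e-08), and in AireKO fell by 1.06 (SE 0.11, adjusted p = 1.20e-07). Atp5f1, of the peripheral stalk, fell by 1.37 (adjusted p = 6.53e-06) and Atp5b fell by 1.04 (adjusted p = 1.19e-05), with -1.14 and -0.89 in AireKO. Atp5e fell by 0.59 (adjusted p = 0.0117) and was -0.48 in AireKO. The 1 higher member of ATP synthase was Atp5s, with 18.3, 16.7 and 18.8 against 7.95, 7.08 and 5.35 CPM. It rose by 1.40 (SE 0.21, adjusted p = 1.41e-05) in KI/+ and by 1.18 (SE 0.22, adjusted p = 1.38e-04) in AireKO, and passed in every alternative tried in both.

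Complex IV had 9 of 15 members lower in KI/+ and 7 in AireKO, among them Cox5b (-1.12 and -0.94) and Cox8a (-1.005 and -0.99). Complex II had 4 and 3 of 4 lower, and complex III 4 and 3 of 8 lower with Uqcrc1 higher in each (0.31 and 0.34). The KI/+ call of Uqcrc1 was lost in 6 of 6 fits that left out a library. Uqcrb, of complex III and chosen after its values were seen, had 3.94, 6.08 and 3.93 CPM in lymph node and 13.1, 13.8 and 21.4 CPM in bone marrow AGF+ cells of KI/+ mice and fell by 1.77 (adjusted p = 2.98e-04). Its libraries did not overlap. Complex I moved least, with 1 of 7 core subunits lower in each genotype (medians -0.12 and 0.16) and 9 (KI/+) or 4 (AireKO) of 29 accessory subunits, Ndufa9 in KI/+ at -0.93 and Ndufa1 in AireKO at -0.96 among them. Ndufs5 fell by 0.72 (adjusted p = 0.0343) and was -0.80 in AireKO (adjusted p = 0.0236). Cox6a1, with NRF1 motifs as well, was at 0.05 and 0.04 (adjusted p = 0.827 and 0.853).

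Among members higher in the lymph node, Ndufaf6, an assembly factor of complex I, had 6.62, 7.45 and 6.98 against 3.26, 4.02 and 4.82 CPM in KI/+. It rose by 0.79 (SE 0.22, adjusted p = 0.00476), and rose by 1.08 in AireKO. The accessory subunit Ndufa6 rose by 0.46 and 0.66, with its KI/+ call lost in 4 of 6 fits that left out a library. In AireKO only, by its own test, Ndufa12 passed (1.16, SE 0.32, adjusted p = 0.00488), with 7.02, 5.02 and 8.81 against 2.82, 3.42 and 3.06 CPM. A difference from KI/+ was not tested. Without bone marrow AGF+ replicate 3, 25 nuclear members were lower in KI/+ in place of 38. Without the libraries numbered 2 the count was 13 lower in AireKO in place of 29, and 1 higher in KI/+ in place of 4. With library size alone 24 were lower and 8 higher in KI/+, and 17 and 11 in AireKO. That scaling moved the median of all genes to 0.20 and 0.19 and their split to 5798 higher and 3882 lower in KI/+ and 5546 and 3683 in AireKO. The mitochondrial falls passed under all alternatives tried in KI/+, and for 9 of 10 genes in AireKO. For mt-Co2, mt-Co3 and mt-Atp6 this adds no support, because the filter kept them only through the bone marrow libraries. Proliferation markers were lower in the lymph node for 5 of 5 genes, at 56.5 to 101 CPM against 956 to 1873 CPM over both genotypes, and their part in these values was not tested.

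**Figure D4:**
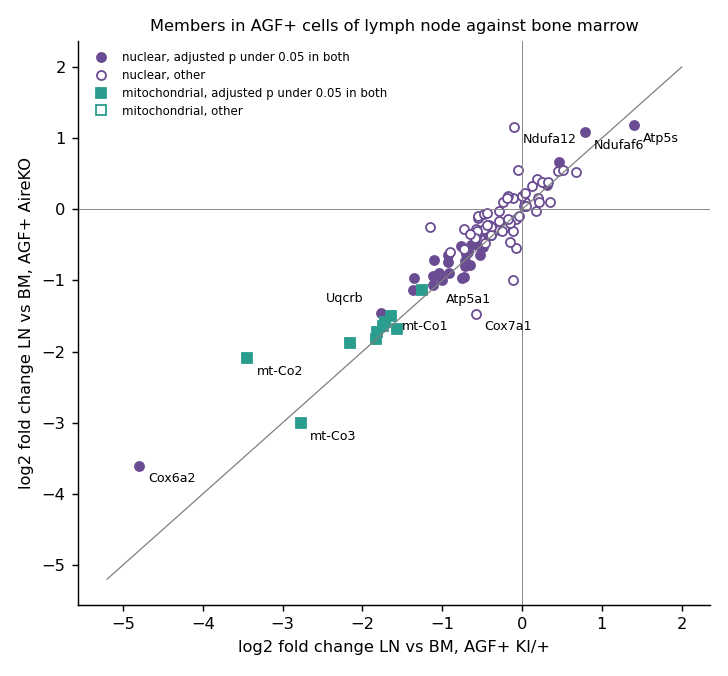
Log2 fold change of each member between lymph node and bone marrow AGF+ cells in KI/+ (horizontal) and AireKO mice (vertical); circles are nuclear and squares mitochondrial members, filled where both comparisons passed an adjusted p under 0.05, and the line marks equal values. The 10 mitochondrial squares lie below -1.1 on both axes, Cox6a2 lies lowest at -4.80 and -3.60, and Atp5s and Ndufaf6 lie at the upper right. mt-Co2, mt-Co3, mt-Atp6 and Cox6a2 passed the filter only through groups where they are high.

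The cells outside the reporter-positive gates gave a like order. Lymph node AGF- cells and bone marrow total DCs of KI/+ mice, again from other gates, differed in 49 nuclear members lower in the lymph node and 7 higher of 88, where 27.3% of all genes were lower and 28.8% higher (56.1% together). All 10 mitochondrial members were lower, with a median of -1.57 against -0.51 over nuclear members and 0.05 over all genes. Among them mt-Co2, mt-Co3 and mt-Atp6 again passed the filter only through the bone marrow libraries, so their falls add no support. This comparison shares no library with those of AGF+ cells. ATP synthase had 13 of 17 members lower (median -1.03), complex II 4 of 4 (-1.13), complex III 5 of 8 (-0.90), complex IV 8 of 15 (-0.47) and complex I 4 of 7 core and 14 of 29 accessory subunits (-0.39 and -0.36). Atp5a1 had 378, 366 and 379 against 926, 1085 and 1110.3 CPM and fell by 1.47 (SE 0.11, adjusted p = 1.43e-09). Sdha, the catalytic subunit of complex II, had 193, 199.6 and 176 against 362, 449 and 439.7 CPM and fell by 1.14 (SE 0.10, adjusted p = 1.92e-08). Cox8a had 28.2, 31.1 and 31.9 against 120.1, 133 and 117 CPM and fell by 2.02 (SE 0.19, adjusted p = 3.36e-08). None of the 3 overlapped between the groups, but these too were picked by the test.

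In the same comparison Atp5f1 fell by 1.87, Atp5b fell by 1.47, Sdhd fell by 1.12, and mt-Co1 fell by 1.43 (SE 0.18, adjusted p = 1.05e-06). The other mitochondrial members ran from -1.01 (mt-Nd4) over -1.42 (mt-Nd5), -1.46 (mt-Nd1), -1.52 (mt-Nd2), -1.63 (mt-Nd6) and -1.64 (mt-Cytb) to -2.50, -3.12 and -3.26 for mt-Atp6, mt-Co2 and mt-Co3. Higher in the lymph node were Cox6a2, Atp5s (1.02, adjusted p = 7.20e-04), Ndufaf6 (0.88), Ndufaf8 (0.91), Ndufa6 (0.45), Ndufs7 (0.60, adjusted p = 0.0423) and Cox6b2 (1.03, adjusted p = 0.0434). The calls of Ndufs7, Ndufaf8 and Cox6b2 were lost in 4, 4 and 5 of 6 fits that left out a library, and Ndufs7 turned to -0.10 with length and GC offsets. Higher members numbered 4 without lymph node AGF- replicate 3, without total DC replicate 2 and without the libraries numbered 2, and 13 with library size alone. That scaling moved the median of all genes to 0.29 and their split to 6496 higher and 3477 lower, while with the offsets the split was 4324 and 5271.

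Several subunits exist as isoforms that differ between tissues. Apart from Cox6a2, the isoforms known from few tissues were scarce: Cox7a1 had 0.836 to 3.31 CPM over the 21 libraries, Cox4i2, the isoform known from lung, 0 to 3.59, Cox8b 0 to 1.31 and Ndufa4l2 0 to 0.222 CPM, and no count was found for Cox8c. Cox6b2, known from testis, averaged 2.81 CPM against 89.4 for Cox6b1. Atp5if1, the ATP synthase inhibitor, has no member under that symbol. Of the 3 genes for the same c subunit, Atp5g3 averaged 177 CPM per kb, Atp5g2 49.4 and Atp5g1 3.17. These values depend on the transcript used for each gene, of 723, 731 and 4715 bases. Without division by length the gap was smaller, with 13617, 3867 and 1605 counts over all libraries. In bone marrow AGF+ cells Atp5g3 fell by 0.91 (adjusted p = 0.00131), while Atp5g1 (-0.22, adjusted p = 0.496) and Atp5g2 (-0.13, adjusted p = 0.607) did not pass, and the difference between these genes was not tested. Reads of Atp5g2 can be shared with copies (87.4% of its words). Cox7a2l, counted here with complex IV, fell by 0.83 there (adjusted p = 9.50e-04) and Cox7a2 fell by 0.52 (adjusted p = 0.0296). Cox7a1 did not pass in that comparison (0.39) and fell by 1.48 (adjusted p = 0.00608) between lymph node and bone marrow AGF+ cells of AireKO mice. This fall adds no support, because Cox7a1 lay below the filter in the lymph node and passed across tissues only with the bone marrow libraries.

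Cox6a2, the isoform of complex IV subunit 6a known from heart and skeletal muscle, took a course of its own. It had 0, 0.304 and 0 CPM in lymph node AGF+ cells of KI/+ mice and 0.167, 0.201 and 0 CPM in AireKO. In lymph node AGF- cells it had 9.32, 1.41 and 6.97 CPM (KI/+) and 16.2, 2.76 and 6.80 CPM (AireKO mice). Bone marrow total DCs had 0.213, 0 and 0.193 CPM, and AGF+ cells there had 2.65, 5.55 and 3.21 CPM in KI/+ mice, against 1.31, 2.35 and 1.78 CPM in AireKO mice. Every AGF- library of the lymph node lay above every AGF+ library, and in the bone marrow this order was the other way round.

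As counts summed over 3 libraries, Cox6a2 had 2 in each lymph node AGF+ group and in total DCs, 82 and 138 in lymph node AGF- cells of KI/+ and AireKO mice, and 60 and 25 in bone marrow AGF+ cells. Lymph node AGF- over AGF+ cells the ratio was 50.6 (95% counting interval 13.6 to 425) in KI/+ and 67.1 (18.2 to 560) in AireKO, and edgeR gave adjusted p = 0.00305 and 0.0011. Bone marrow AGF+ cells over total DCs gave 28.1 (7.45 to 238, adjusted p = 1.83e-04). Bone marrow over lymph node AGF+ cells gave 33.4 (8.85 to 282, adjusted p = 4.76e-04) in KI/+ and 14.2 (3.55 to 124, adjusted p = 0.0137) in AireKO. Lymph node AGF- cells over total DCs gave 42.6 (11.4 to 358, adjusted p = 1.50e-04). These intervals cover counting error only. Cox6a2 passed the filter on low counts only through the groups where it was high, so these adjusted p values add no support. Its common counterpart Cox6a1 had 61.8 to 133 CPM in all libraries, and fell by 0.65 (adjusted p = 0.00224) in bone marrow AGF+ cells against total DCs, where Cox6a2 was higher.

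Values of 2 other genes are given beside Cox6a2. Cox6a2 lies at chr7:128205435-128206387 (GRCm38, minus strand) within Itgad at chr7:128154376-128223816 (plus strand), and 3.33% of its 50-base words occur in an Itgad transcript. With the strand setting unknown, reads from that overlap cannot be told apart. Itgad had group medians of 0.946 and 1.61 CPM in lymph node AGF+ cells, 4.88 and 3.28 in lymph node AGF- cells, 0 in total DCs, and 0.892 and 1.07 in bone marrow AGF+ cells (KI/+ and AireKO). Siglech, a marker of plasmacytoid DCs, had 4.51 to 11.7 CPM in lymph node AGF+ libraries and 36.5 to 299 CPM in AGF- ones. In the bone marrow it had 2.51 to 11.9 CPM in total DCs and 66.8 to 83.0 CPM in AGF+ cells. The groups low in Siglech were those low in Cox6a2, and Ly6d was low in the same groups. Other plasmacytoid DC markers did not all follow. Tcf4 had 454 to 554 CPM in total DCs and 314 to 518 CPM in lymph node AGF- libraries. Bst2 had 30.3 to 87.4 and 54.3 to 110 CPM there. Of the 5 plasmacytoid DC markers 2 were lower in lymph node AGF+ cells of KI/+ mice and 3 in AireKO, and 4 were higher in bone marrow AGF+ cells than in total DCs. Their sums were 387 to 453 CPM in lymph node AGF+ and 497 to 1146 CPM in AGF- libraries, 557 to 654 CPM in total DCs and 1301 to 1472 CPM in bone marrow AGF+ cells, and no marker was at 0 in a group. Their part in the Cox6a2 values was not tested.

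**Figure D5:**
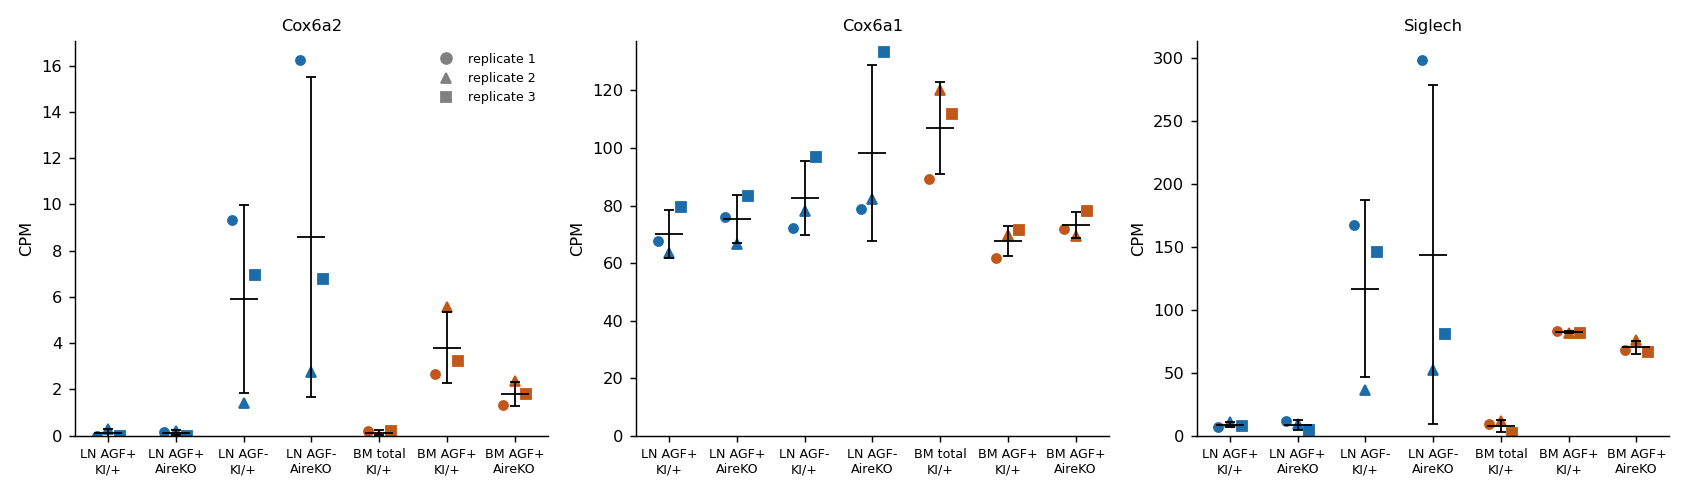
CPM of Cox6a2 (left), its common counterpart Cox6a1 (middle) and the plasmacytoid DC marker Siglech (right) in each library of the 7 groups; symbols are replicates, blue is lymph node and orange bone marrow, and bars are means ± SD of 3 libraries. Cox6a2 and Siglech are both low in lymph node AGF+ cells and total DCs, where Cox6a2 stays at or under 0.304 CPM, and Cox6a1 is at 61.8 CPM or more throughout. The plasmacytoid DC markers Tcf4 and Bst2, not drawn, did not follow this order in total DCs.

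Whether loss of Aire changes these genes was asked by comparing AireKO with KI/+ cells of the same sort. No member passed in any of the 3 sorts compared. In lymph node AGF+ cells 0 of 87 nuclear and 0 of 7 mitochondrial members were called, where 0.0126% of all genes were called (edgeR; 1 and 1 at an unadjusted p under 0.05; DESeq2 and limma voom 0). All 7 mitochondrial members had positive values, with a median of 0.38 against 0.07 over nuclear members. mt-Co1 had 849, 1366 and 1266 CPM in KI/+ mice, against 1536, 1535 and 1709.9 CPM in AireKO, without overlap, and its log2 fold change was 0.44 (95% interval 0.01 to 0.88, adjusted p = 0.967). Values of mt-Nd1, mt-Nd2, mt-Nd4, mt-Nd5, mt-Cytb and mt-Nd6 were 0.42, 0.39, 0.38, 0.38, 0.25 and 0.12.

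In bone marrow AGF+ cells the calls were 0 of 88 nuclear and 0 of 10 mitochondrial members, where 0.0129% of all genes were called, 0.00645% in each direction (edgeR; 2 and 4 at an unadjusted p under 0.05; DESeq2, limma voom and the block 0). Of the mitochondrial members 9 of 10 had positive values, with a median of 0.29 against -0.03 over nuclear members. mt-Co1 had 3650.2, 3375 and 3861 CPM in KI/+ mice, against 4581, 4136 and 4809 CPM in AireKO. The groups did not overlap, and the log2 fold change was 0.32 (SE 0.10, adjusted p = 1). mt-Nd2 stood at 0.32, mt-Nd1 at 0.30, mt-Nd5 at 0.29, mt-Nd4 at 0.28, mt-Cytb at 0.26, mt-Nd6 at 0.25, mt-Co3 at 0.35, mt-Atp6 at 0.14 and mt-Co2 at -0.25. The summed mitochondrial level was 1.32-fold higher in AireKO among lymph node AGF+ cells and 1.23-fold among bone marrow AGF+ cells, with no overlap between genotypes in either tissue. The gaps were narrow, with 4071 (KI/+) against 4192 CPM (AireKO) in the lymph node and 12061 against 12232 CPM in the bone marrow. Without KI/+ replicate 1 the lymph node mean of KI/+ rose from 3408 to 3888 CPM, against 4505 CPM in AireKO. These sums carry no test. Each AGF+ group also enters the comparisons above, so these values are not independent of them.

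In lymph node AGF- cells 0 of 87 nuclear and 0 of 7 mitochondrial members were called between genotypes, where 0.0063% of all genes were called (edgeR; 5 and 0 at an unadjusted p under 0.05; DESeq2, limma voom and the block 0). The mitochondrial values were 0.03 to 0.16. Of the nuclear members 81 of 87 had positive values with a median of 0.25, and the AireKO replicate 3 library had the highest nuclear sum of the 6. Cox6a2 did not pass in the bone marrow (-1.07, SE 0.40), where its genotypes did not overlap.

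Whether the reporter sort acts alike in both tissues was tested in KI/+ mice by the interaction of sort with tissue, in which total DCs stand in for AGF- cells of the bone marrow. Here 9 of 88 nuclear members differed with a higher value in the lymph node and 1 with a lower, where 9.75% and 11.2% of all genes did. The share of members with a higher value was near that of all genes, and the share with a lower value was under it. Of the 10 mitochondrial members 0 differed (edgeR; 0 at an unadjusted p under 0.05, 0 by DESeq2, limma voom and the block), with values of -0.33 to 0.48 and mt-Co1 at -0.21 (SE 0.25, adjusted p = 0.607). Without the libraries numbered 2, 0 nuclear members were higher. With length and GC offsets 18 were higher, and all genes then split into 2823 higher and 1771 lower in place of 1684 and 1936 and their median moved to 0.15.

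Other gene lists of mitochondria and energy metabolism were counted beside the members. Their counts read against the same shares of all genes: 11% lower and 10.1% higher in lymph node AGF+ cells of KI/+ mice (13.3% and 11.4% in AireKO), 21.6% and 22.8% in bone marrow AGF+ cells, and 27.1% and 27.2% between tissues in KI/+ AGF+ cells (25.7% each in AireKO, and 27.3% and 28.8% for AGF- cells against total DCs). Of 17 genes of the citric acid cycle and pyruvate dehydrogenase, lymph node AGF+ cells had 3 lower and 1 higher in KI/+ and 6 lower in AireKO, while 12 were lower in bone marrow AGF+ cells than in total DCs, and 9, 8 and 14 were lower in the lymph node (AGF+ KI/+, AGF+ AireKO, and AGF- against total DCs). Medians in the last 3 were -0.56, -0.36 and -0.84. Pdha1, of pyruvate dehydrogenase, fell by 1.11 in bone marrow AGF+ cells and fell by 1.24 between tissues in KI/+, and Mdh2, malate dehydrogenase, fell by 0.86 and fell by 0.96. Of the glycolysis genes, 7 and 8 of 17 were lower in lymph node AGF+ cells of KI/+ and AireKO mice, 9 in bone marrow AGF+ cells, and 15, 16 and 17 in the 3 tissue comparisons, with medians there of -1.41, -1.54 and -1.72. Pgk1, which makes ATP in glycolysis, fell by 3.382 between lymph node and bone marrow AGF+ cells of KI/+ mice, Tpi1 fell by 2.89 and Eno1 fell by 2.49.

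Regulators and maintenance genes were counted in the same way. Of 13 genes of mitochondrial transcription and genome maintenance 0 were called in either lymph node sort comparison (edgeR), 3 were higher and 1 lower in lymph node AGF+ cells of KI/+ mice against bone marrow, and 4 higher and 1 lower in AGF- cells against total DCs. Polrmt, the mitochondrial RNA polymerase, rose by 1.12 in the lymph node in KI/+ AGF+ cells. Polg, the mitochondrial DNA polymerase, rose by 0.60 there. In that comparison the 7 mitochondrial members that also passed the lymph node filter were all lower. Among 9 regulators of biogenesis 4 were lower in lymph node AGF+ cells in each genotype. Ppargc1b, a coactivator of mitochondrial gene programmes, fell by 2.49 and Myc fell by 2.47 in KI/+, and Ppargc1b fell by 2.25 in bone marrow AGF+ cells. Gabpa, which encodes the DNA-binding subunit of GABP, fell by 0.50 in lymph node AGF+ cells and fell by 0.70 between tissues. Nrf1 rose by 0.74 in bone marrow AGF+ cells against total DCs.

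Assembly factors for the complexes were called seldom in the lymph node sort comparisons, with 0 of 16 for complex I and 0 of 19 for complex IV in both genotypes (edgeR). In bone marrow AGF+ cells 4 of 16 and 3 of 19 were lower, shares near or under that of all genes, with Tmem126b (-1.34) of complex I and Coa5 (-0.51), Lrpprc (-0.65) and Cox10 (-0.81) of complex IV. Of 14 electron and metabolite carriers 6 were lower in bone marrow AGF+ cells and 9 between tissues in each genotype, such as Slc25a4, the adenine nucleotide carrier (-1.24), and Vdac1 (-0.90) in KI/+. Pdss2, of coenzyme Q synthesis, rose by 1.18. Mitochondrial ribosomal proteins gave 24 lower and 1 higher of 76 in bone marrow AGF+ cells, and 20 lower and 10 higher of 77 between tissues in KI/+, where the share lower was near that of all genes. Cytosolic ribosomal proteins, short transcripts like the members, had 40 of 80 lower in bone marrow AGF+ cells, 39 lower and 7 higher between tissues in KI/+ and 21 of 79 lower in lymph node AGF+ cells of KI/+ mice. Other genes with transcripts under 1000 bases had medians of 0.04 and 0.05 in the lymph node sort comparisons, 0.10 in the bone marrow and 0.14, 0.10 and 0.27 between tissues, while members under that length had -0.29 and -0.45, -0.44, and -0.47, -0.29 and -0.47.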

How the data were processed

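RNA from 21 libraries of sorted DCs (7 groups of 3 biological replicates) was read paired-end. The submitters' processing notes list HTSeq 0.11.2, edgeR 3.38.1, STAR 2.7.3a, fastp 0.20.0, Picard 2.21.1 and SAMtools 1.9, with mm10. Not given in the sources used here: annotation release, strand setting and treatment of multiply mapped reads. The deposited values used here are counts per gene, whole numbers that the authors had not normalized. The deposited normalized table was not used. Symbols, gene types and transcript lengths came from GENCODE vM21.

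Members and gene lists were chosen with earlier results of these data known. Tests used edgeR 4.0.16 in R 4.3.3 (quasi-likelihood F test with TMM, genes kept by filterByExpr, Benjamini-Hochberg over all genes tested, adjusted p under 0.05). Lymph node comparisons came from 1 fit of 12 libraries, bone marrow comparisons from 1 fit of 9, and those across tissues from all 21. Positive log2 fold changes mean higher in the first group named. The tests were tested on simulated counts. CPM used TMM effective sizes of all libraries, which were 0.876 to 1.09 of the totals.

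The text names all 13 mitochondrial members, per comparison up to 6 nuclear members per direction with the smallest adjusted p, a fixed set of isoforms, the 5 nuclear members with the highest mean CPM and up to 4 genes per other list. Beyond that rule, Ndufs5, Atp5e, Uqcrb, Uqcrh, Itgad, Cd3e and the members whose extent of shared sequence, low counts or genotype values are given were chosen after their values were seen. A member that this rule picks is not reported here but remains in every count, sum and median.

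Deviations of libraries with the same replicate number correlated above 0.1 for all 3 numbers in the lymph node sort comparisons (0.192 to 0.323 in KI/+, 0.272 to 0.349 in AireKO), in both bone marrow comparisons (0.192 to 0.407) and between genotypes in AGF- cells (0.366 to 0.449). They did not in lymph node AGF+ cells between genotypes (lowest 0.0913) or across tissues. The pairing comes from these data and not from the labels.

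Alternatives were DESeq2 1.42.0 size factors and Wald test, library size alone, mitochondrial genes removed, no filter, at least 10 counts in 3 libraries, limma 3.58.1 voom with sample weights, the replicate block, length and GC offsets, only the groups compared, all libraries numbered 2 left out and each library left out. The offsets with the block were added after seeing the data. Other steps ran in Python 3.11.15 with matplotlib 3.10.9, scipy 1.17.1, numpy 2.4.6 and pandas 2.3.3.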

Additional observations from a re-analysis of the deposited data

Results flagged for a closer look

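In KI/+ mice 10 of 88 nuclear members, where 21% of all genes were called, had a sort effect that differed between the tissues by the interaction test (edgeR, positive where AGF+ over other cells was higher in the lymph node than in the bone marrow). Cox6a2 was at -9.999 (SE 1.41, adjusted p = 3.41e-05), lower in the AGF+ cells of the lymph node and higher in those of the bone marrow, and it was called in every alternative. This fitted value rests on groups with 2 counts and depends on the prior count. Cox6a2 passed the filter on low counts only through the groups where it was high, so these calls add no support.

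Sdha stood at 0.74 (SE 0.15, adjusted p = 8.85e-04), Cox7a2l at 0.77 (SE 0.20, adjusted p = 0.00795) and Cox8a at 1.01 (SE 0.27, adjusted p = 0.00927). Each fell in bone marrow AGF+ cells against total DCs, while their lymph node KI/+ values were 0.13, -0.07 and -0.05 and did not pass. These 3 were lost only without the libraries numbered 2, among the alternatives tried.

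Sdhd was at 0.60 (adjusted p = 0.026), Ndufb5 at 0.68 (adjusted p = 0.0458), Ndufs5 at 1.15 (adjusted p = 0.0464), Cox6b1 at 0.72 (adjusted p = 0.0488) and Ndufs1 at 0.60 (adjusted p = 0.0496). The calls of Ndufb5, Ndufs5, Cox6b1 and Ndufs1 were lost in 10 or 11 of 12 fits that left out a library and that of Sdhd in 7. The bone marrow groups differ in gate, which cannot be told apart from the reporter in these values.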

How the results depend on the processing

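Of 396 alternative values of counts and levels, 340 stayed within the limits set (1.5 times for counts, 1 SD for levels) and 56 moved. For nuclear members lower in lymph node AGF+ cells of KI/+ mice (7), there were 12 without a filter, 14 with limma voom, 12 with the replicate block, 11 with offsets and block, and 1 without the libraries numbered 2, which also left 0 higher in place of 1. The mitochondrial count of 4 became 7 with no filter, the block, or offsets and block. In AireKO the 15 lower became 32 with no filter, 33 with the block, 9 with only the groups compared and 7 without the libraries numbered 2. There 1 was higher in place of 0 with limma voom, the block, the offsets, and both, and the mitochondrial count of 0 became 7 with no filter, 1 with DESeq2, 3 with the block, 2 with the offsets and 7 with both. Without the libraries numbered 2, bone marrow AGF+ cells had 20 lower (50), 1 higher (3) and 4 mitochondrial members lower (7). Between tissues, library size alone gave 24 lower (38) and 8 higher (4) in KI/+, 17 lower (29) and 11 higher (6) in AireKO and 13 higher (7) for AGF- cells against total DCs. KI/+ had 2 higher with no filter and 1 without the libraries numbered 2, AireKO 13 lower without them, and AGF- cells against total DCs 4 higher with the offsets, with offsets and block, and without the libraries numbered 2. The interaction of sort with tissue had 2 lower (1) with library size alone, DESeq2, limma voom, the block, offsets and block, and only the groups compared, and 3 with no filter. Its 9 higher became 5 with DESeq2 size factors, library size alone, mitochondrial genes removed, no filter, or 10 counts in 3 libraries, 25 with limma voom and with offsets and block, 18 with the offsets and 0 without the libraries numbered 2. The cause of these moves was not tested. Where no split of all genes is given for a setting, its counts cannot be read as particular to the members. Ndufs7 in AGF- cells against total DCs reversed to -0.10 with the offsets and -0.13 with offsets and block. CPM over library totals gave nuclear sums of 3635 in lymph node AGF+ KI/+, 6739.9 in total DCs and 4638 in bone marrow AGF+ AireKO, and a mitochondrial sum of 14481 in total DCs.

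Leaving out each library in turn gave 1 to 4 nuclear members lower, 0 to 1 higher and 0 to 6 mitochondrial ones lower in lymph node AGF+ cells of KI/+ mice, and 6 to 25, 0 to 1 and 0 to 1 in AireKO. It gave 39 to 55 lower and 1 to 3 higher in bone marrow AGF+ cells, 25 to 37 lower and 2 to 3 higher between tissues in KI/+, 4 to 7 higher for AGF- cells against total DCs, and 1 to 2 lower and 3 to 13 higher for the interaction. Of the nuclear calls, 1 of 8 and 5 of 15 held in every alternative in the lymph node sort comparisons (KI/+ and AireKO), 21 of 53 in the bone marrow, and 20 of 42, 16 of 35 and 37 of 56 between tissues. The replicate block changed the count by more than 1.5 times in the lymph node sort comparisons and the interaction only. At 3.93 to 6.58 counts per CPM, members near 1 CPM rest on few counts per library.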
